A study of Mus musculus with 4 samples.

Results

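The 10 genes described here are core members of the MHC class I antigen presentation pathway: B2m, H2-K1, H2-D1, Tap1, Tap2, Tapbp, Psmb8, Psmb9, Nlrc5 and Erap1. They were followed by the histone H3 lysine 4 (H3K4) signal at their promoters in activated mouse splenic B cells, with and without PA1. Members were taken by name from the GENCODE vM1 annotation of mm9, in which 22225 protein-coding gene names have a start site. Tap1 and Psmb9 share 1 promoter window and are named together, so the 10 genes have 9 promoters. Of these, 8 held the 50 reads needed for a comparison, as did 12143 promoters in all, and Nlrc5 did not.

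The series set PA1-KO against PA1-WT B cells to ask how histone modifications depend on PA1, which works with PTIP beside the H3K4 methyltransferases MLL3 and MLL4. Of its 4 samples, the 2 whose antibody is labelled H3K4 were used, 1 of each genotype. Both groups were spleen B cells of mice 6 to 14 weeks old, purified by magnetic removal of cells bearing CD43 and grown in LPS (25 µg/ml) for 2 days. LPS was combined with an anti-IgD antibody coupled to dextran (2.5 ng/ml) or with IL4 (5 ng/ml), and the labels of the 2 libraries used here do not say which. The labels also do not give the mouse strain, how PA1 was removed, whether animals were pooled, or which methylation state of H3K4 the antibody recognises. Native chromatin was cut with MNase, so a read marks one end of a nucleosome-sized fragment that carried the mark. Reads on nuclear chromosomes numbered 5259995 in the knockout and 5539475 in wild type. As each genotype has 1 library, no test between genotypes was possible. Each ratio below is knockout over wild type with an exact conditional binomial 95% interval, which covers counting error only and compares these 2 libraries.

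MHC class I molecules show peptides from inside the cell to CD8 T cells. The proteasome makes the peptides, the transporter Tap1-Tap2 carries them into the endoplasmic reticulum, Erap1 trims them, and tapasin (Tapbp) helps load them onto a heavy chain (here H2-K1 or H2-D1) paired with beta-2 microglobulin (B2m). In immune cells and after interferon, the catalytic subunits Psmb8 and Psmb9 replace constitutive ones to form the immunoproteasome, and Nlrc5 acts as a transactivator of class I genes through the SXY module of their promoters. Methylation of H3K4 marks active promoters and enhancers; the trimethylated form flanks the starts of transcribed genes.

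The promoter sequences of 5 members are printed because they carry the letters that factors of this pathway are known to read. They are RefSeq promoters of GRCm38.p6, from 250 bases before the RefSeq start to 50 after it. Each was found at 1 place in NCBIM37, the assembly that mm9 also is, and is given with that position and its strand. Capitals mark every match, on either strand, to the interferon response element core (GAAA, any 2 bases and GAAA again), the NF-kB site (GGGA, any 4 bases and CC), the Y box core (CCAAT) and the X2 box core (TGACG).
B2m, chr2:121973173-121973472, plus strand: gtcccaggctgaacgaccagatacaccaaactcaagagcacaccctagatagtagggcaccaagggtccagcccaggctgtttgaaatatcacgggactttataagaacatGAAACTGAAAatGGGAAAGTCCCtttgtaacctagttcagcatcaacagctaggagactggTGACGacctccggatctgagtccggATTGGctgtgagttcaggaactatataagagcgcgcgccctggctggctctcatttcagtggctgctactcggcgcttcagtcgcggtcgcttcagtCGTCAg
H2-K1, chr17:34137243-34137542, minus strand: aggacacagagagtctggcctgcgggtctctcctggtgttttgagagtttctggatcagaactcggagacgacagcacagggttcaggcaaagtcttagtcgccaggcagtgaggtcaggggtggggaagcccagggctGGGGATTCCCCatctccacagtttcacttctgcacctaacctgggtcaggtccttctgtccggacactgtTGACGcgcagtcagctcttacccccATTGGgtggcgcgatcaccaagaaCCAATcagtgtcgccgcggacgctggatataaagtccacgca
H2-D1, chr17:35399789-35400088, plus strand: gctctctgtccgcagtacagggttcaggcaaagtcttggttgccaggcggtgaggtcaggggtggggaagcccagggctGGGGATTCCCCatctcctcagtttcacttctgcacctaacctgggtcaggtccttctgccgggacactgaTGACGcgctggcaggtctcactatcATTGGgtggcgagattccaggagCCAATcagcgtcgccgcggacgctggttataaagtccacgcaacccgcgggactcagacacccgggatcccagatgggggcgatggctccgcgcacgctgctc
Tap1, chr17:34324251-34324550, plus strand: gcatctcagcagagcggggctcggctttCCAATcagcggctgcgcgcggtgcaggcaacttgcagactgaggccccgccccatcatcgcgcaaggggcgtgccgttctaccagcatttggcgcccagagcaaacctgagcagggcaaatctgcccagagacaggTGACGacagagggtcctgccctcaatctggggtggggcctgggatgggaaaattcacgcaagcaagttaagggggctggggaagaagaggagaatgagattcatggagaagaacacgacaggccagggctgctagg
Erap1, chr13:74777051-74777350, plus strand: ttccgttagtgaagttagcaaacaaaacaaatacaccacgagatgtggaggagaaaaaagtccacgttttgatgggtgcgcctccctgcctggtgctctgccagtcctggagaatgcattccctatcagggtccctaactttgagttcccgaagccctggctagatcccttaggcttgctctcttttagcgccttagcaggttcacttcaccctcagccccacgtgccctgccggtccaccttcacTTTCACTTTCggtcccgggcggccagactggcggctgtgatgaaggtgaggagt

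RefSeq entries were matched for 8 of the 10 genes. The Psmb9 entry is the Tap1 stretch read from the other strand: the 2 entries share 275 of their 300 bases. The B2m promoter holds the interferon response element core as GAAACTGAAA at positions -139 to -130 from its start. The NF-kB letters follow at -127 to -117, as 2 overlapping matches on opposite strands. Erap1 holds the interferon element on the minus strand across its start, and these were 2 of 8 members beside 3.49% of 27025 RefSeq promoters. The NF-kB letters, in B2m, H2-K1 and H2-D1, were in 3 of 8 beside 20.5%. The X2 core was in 5 of 8 (B2m, H2-K1, H2-D1, Tap1 and Psmb9) beside 21.0%, and the Y box core in 6 of 8, those 5 and Tapbp, beside 37.9%. For both motifs the Tap1 and Psmb9 matches are the same bases, read from opposite strands. The entries of H2-K1 and H2-D1 were 88.3% identical, at 211 of 239 aligned bases, with an unbroken identical run of 47 bases. A match describes letters in this window and was not taken as a bound site.

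None of the 8 promoters was called higher or lower in the knockout. A call needed a ratio of at least 1.5-fold in either direction with an interval excluding 1, which 0.667% of all compared promoters met as higher and 4.89% as lower. All 8 intervals included 1, as did 78.5% of those of all promoters. Ratios ran from 0.794 at H2-K1 to 1.07 at B2m, with 3 above 1 and 5 below it, and their median log2 was -0.02, beside 0.00 over all promoters. Libraries were scaled to each other by TMM, a trimmed mean of log ratios, which sets the bulk of promoters near a ratio of 1. This choice fixes the level from which each ratio is read. With scaling to the reads that lie outside islands of enrichment and promoters, all promoters shifted together, with a median log2 of -0.31. The 8 ratios then ran from 0.641 to 0.865, all below 1, with 7 of the 8 intervals below 1. H2-K1 alone was called lower, beside 16.7% of all promoters. Scaled to total reads, 2 of the 8 intervals lay below 1.

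**Figure D1:**
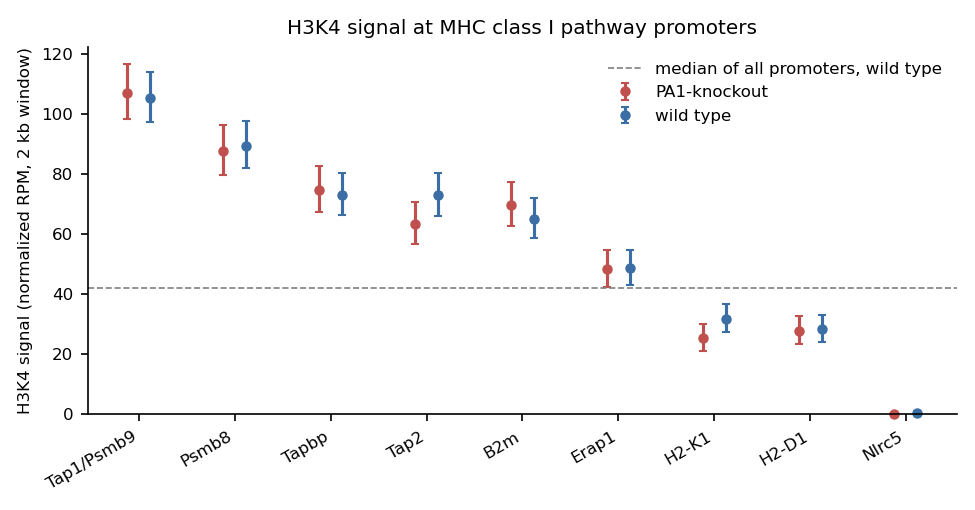
H3K4 signal at the 9 promoters in normalized RPM, PA1-knockout in red and wild type in blue. Normalized RPM are reads per 1000000 after TMM scaling, counted within 1 kb of the start. Bars are exact Poisson 95% intervals for counting error. For a count of 0 the bar instead reaches 3 counts, a 1-sided 95% bound. There is 1 library per genotype. Tap1/Psmb9 stood at 107 and 105, H2-K1 and H2-D1 below the wild-type median of all promoters (42.1, dashed), and Nlrc5 at 0 and 0.347. The Nlrc5 start used is not that of a protein-coding transcript.

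The levels spread far more between promoters than between genotypes. In wild type, 6 of the 8 promoters lay above the median of all compared promoters, which was 42.1 normalized RPM, and the median of the 8 was 69.0. The order in wild type was Tap1/Psmb9, Psmb8, Tapbp, Tap2, B2m, Erap1, H2-K1 and H2-D1. Counting intervals of neighbours overlapped between Tap1/Psmb9 and Psmb8, among Tapbp, Tap2 and B2m, and between H2-K1 and H2-D1. They did not overlap between Psmb8 and Tapbp, B2m and Erap1, or Erap1 and H2-K1. All windows have the same length, so these levels can be set side by side with some limits. Reads can be placed in only part of the heavy chain windows, as described below. Each level is also that of the annotated start with most reads, and the order depends on that choice. Around the starts of the protein-coding transcripts Psmb8-001 and Tapbp-001 there were 324 and 286 wild-type reads, below the 375 at B2m.

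H2-K1 encodes a classical heavy chain. Its window (chr17:34136202-34138202) around the start at 34137202 held 128 knockout and 184 wild-type reads. The ratio was 0.794, with an interval from 0.629 to 1.0004 that only just included 1. At H2-D1, the other heavy chain, 141 and 164 reads lay within 1 kb of the start at chr17 position 35400039, for a ratio of 0.981 (0.778 to 1.24). The intervals of the heavy chains overlap, and a difference between them was not tested. At B2m, the light chain, 352 and 375 reads lay around the start at chr2 position 121973422, and the ratio was 1.07 (0.924 to 1.24).

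Much of the heavy chain windows cannot receive reads. A 25-base read starting there had a unique place in the genome at 60.8% of positions for H2-K1 and 72.4% for H2-D1, whose sequences resemble those of other class I genes. The median over 3499 start sites, every 20th of the annotation, was 97.4%, and 7.29% of them were below 75%. For the other members it was 92.6% at Erap1, 94.3% at B2m and 96.6% or more elsewhere. Every read in the member windows lay at a position whose 25 bases occur once in the reference. Reads with a mismatch were counted too, and whether some came from a similar gene was not tested. Per 1000 positions where a read could be placed, unscaled for library size, H2-K1 held 52.6 knockout and 75.6 wild-type reads and H2-D1 48.7 and 56.6. These were still the lowest values of the 8, with Erap1 next at 65.9 and 75.8 and Tap1/Psmb9 highest at 135 and 152.

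Differences in sequence between the mice could also keep reads from class I genes, which vary between strains. Across the genome, 130 positions with 3 or more reads in both libraries mismatched the reference in at least 80% of knockout reads and in no wild-type read, and 159 showed the reverse. Between Tapbp and H2-T23 on chromosome 17, which takes in H2-K1 and H2-D1, there was no such position in either direction, nor within 2 kb of any of the 10 genes. That region held 32369 of the 5259995 knockout reads, so at the genome-wide rate few such positions would fall there in any case. Their absence does not show equal sequence, and whether the mice differ there was not tested. On the whole of chromosome 17 there were 8 in the knockout direction and 0 in the other. The share of reads with any mismatch was 8.04% in the knockout and 7.34% in wild type genome-wide, and between Tapbp and H2-T23 it was 7.91% (Clopper-Pearson interval 7.62 to 8.21) and 6.81% (6.55 to 7.07). The part of this difference in the class I values was not tested. In the H2-K1 gene the share was 6.00% in the knockout (3.14 to 10.2) and 6.69% in wild type (3.95 to 10.5). A read too unlike the reference to be placed would not be in these files.

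Tap1, the first transporter subunit, and Psmb9, an immunoproteasome subunit, are transcribed away from each other from 1 shared promoter. The window around the Tap1 start at chr17 position 34324498 held 541 knockout and 608 wild-type reads, more than all but 0.239% of compared promoters. The ratio was 1.02 (0.903 to 1.14), the narrowest interval of the 8. At the most upstream annotated start of Psmb9, position 34324709, the ratio was 1.01 (0.892 to 1.14).

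Tap2, the second transporter subunit, had 321 and 421 reads, and its ratio of 0.870 (0.750 to 1.01) was the second lowest. The signal was not at the most upstream annotated start, that of transcript Tap2-001 at chr17 position 34340472, where the window held 7 and 21 reads. It lay around the starts of Tap2-002 (221 and 289 reads) and Tap2-004 at 34342045, the window used here. That window also takes in the start of a gene model named Gm20496, and the reads of the pair cannot be separated. Over the union of windows of all Tap2 starts the ratio was 0.845 (0.731 to 0.976), an interval below 1 but short of 1.5-fold.

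Tapbp (tapasin) bridges the transporter and the empty class I molecule. Its window around chr17 position 34057473, the start of Tapbp-004, held 377 and 422 reads, and the ratio was 1.02 (0.885 to 1.17). The RefSeq promoter stretch of Tapbp, which holds its Y box letters, ends at 34056472, just before this window begins at 34056473. At Tapbp-001, which starts at 34056277, there were 236 and 286 reads and the ratio was 0.942 (0.789 to 1.12). A separate start, that of Tapbp-005 at 34052844, held 123 and 143 reads with a ratio of 0.982 (0.765 to 1.26).

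Psmb8 is the other immunoproteasome subunit among the members. The start with most reads, that of the retained-intron transcript Psmb8-002 at chr17 position 34335554, held 443 and 516 reads (0.980, 0.861 to 1.11). The protein-coding transcript Psmb8-001 starts at 34334735, and there the reads were 214 and 324. That ratio was 0.754 (0.631 to 0.899), an interval that excluded 1 without reaching 1.5-fold. Of the reads in the Psmb8-002 window, 75.2% lay downstream of its start in the knockout (Clopper-Pearson interval 70.9 to 79.1) and 67.6% in wild type (63.4 to 71.7). Psmb8 is thus a member whose value depends on which annotated start is read.

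Erap1, the trimming aminopeptidase of the endoplasmic reticulum, lies alone on chromosome 13. Its window around position 74777320 held 244 and 281 reads, a ratio of 0.991 (0.831 to 1.18). Nearly all of its signal was there: 92.1% of knockout and 93.7% of wild-type reads within 2 kb of the gene fell in promoter windows.

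Nlrc5 could not be compared at its annotated start. GENCODE vM1 starts the gene at chr8 position 96996663, and none of its 3 annotated starts belongs to a protein-coding transcript. The window around 96996663 held 0 knockout and 2 wild-type reads, although 99.8% of its positions are unique. A count of 0 in the knockout allows up to 0.594 normalized RPM (3 counts of the library). Over the whole annotated gene with 2 kb either side there were 37 and 45 reads. The nearest strong island upstream ended 36063 bp before that start. It lies at chr8:96956001-96960600, where 353 knockout reads stood against 458 (0.880, 0.764 to 1.01). All 3 vM1 starts of the non-coding gene 9330175E14Rik lie in this island. In the RefSeq table of GRCm38.p6, 9330175E14Rik is the next gene upstream of Nlrc5 and overlaps it, so in that annotation the Nlrc5 gene reaches back to that neighbour. The island was chosen after its values were seen, and whether it is the Nlrc5 promoter was not tested.

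**Figure D2:**
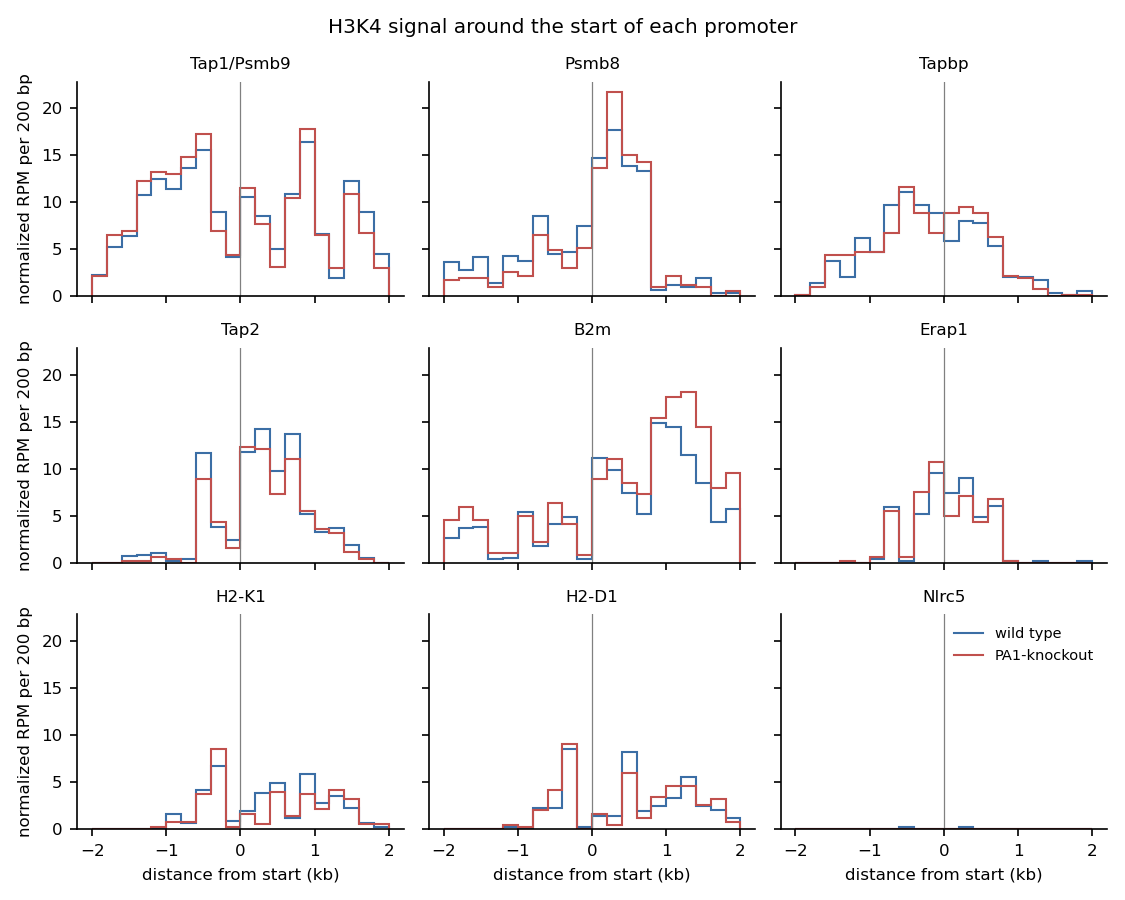
Normalized RPM in 200 bp bins from 2 kb upstream to 2 kb downstream of each start, along the direction of transcription, for the PA1-knockout (red) and wild-type (blue) library. Signal was spread over both sides at Tap1/Psmb9 and Tapbp and lay mostly downstream at B2m, Tap2 and Psmb8. For Psmb8 the start drawn is that of the retained-intron transcript, which lies downstream of the protein-coding starts. In the B2m panel the red line runs above the blue beyond 1 kb downstream.

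At B2m, the 200 bp just before the start held 4 knockout and 2 wild-type reads, at H2-K1 1 and 5, and at H2-D1 0 and 1. Of the positions in these bins, 84.8% or more are unique. The B2m bin covers the stretch of the printed B2m promoter with the interferon, NF-kB and X2 letters. At Erap1 the bin before the start was instead the highest, with 54 and 55 reads. B2m had 73.6% of its reads downstream of the start in the knockout and 74.7% in wild type, and Tap2 76.0% and 74.8%. The shares lay further apart at H2-K1 (44.5% and 56.0%), H2-D1 (44.7% and 53.7%), Erap1 (48.4% and 56.6%) and Tapbp (48.0% and 39.8%). At each of these the intervals of the libraries overlapped. Within 1 kb of the start, the strongest bin was the same in both libraries at 7 of the 8 promoters, the exception being Tap2.

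A finer look at 1 kb parts within 2 kb of each start gave 26 parts with 50 or more reads. Of these, 2 were higher and 2 lower, beside 4.69% higher and 4.02% lower over all 28424 such parts of compared promoters. Both higher parts were at B2m: 1 to 2 kb downstream, where 342 knockout reads stood against 256 (1.52, 1.29 to 1.80), and 2 to 1 kb upstream, where 86 stood against 63 (1.56, 1.11 to 2.19). Neither B2m part was called with scaling to total reads (1.41 and 1.44) or to reads outside islands and promoters (1.23 and 1.26). Under the latter the members had 0 parts higher and 4 lower, the added ones being 1 kb downstream of H2-D1 (0.660) and 1 kb upstream of Psmb8 (0.607). That scaling moved all promoters down, with 16.7% of them called lower. The share of all parts called under it was not counted, so these 4 cannot be set beside one. The lower parts under TMM were the first 1 kb downstream of the H2-K1 start, with 57 and 102 reads (0.638, 0.453 to 0.891), and 2 to 1 kb upstream of the Psmb8 start, with 47 and 94 reads (0.571, 0.393 to 0.818). The Psmb8 parts are measured from the retained-intron start at 34335554, and the protein-coding starts lie in the 1 kb upstream of it. The part 2 to 1 kb upstream reaches into the 3′ end of Tap1. Tap1 ends 496 bp before the most upstream annotated Psmb8 start, at 34334666. In 200 bp bins with 20 or more reads, 1 of 63 member bins was lower, beside 3.00% of all such bins. It was the bin from 200 to 399 bp downstream of the H2-K1 start, where 3 knockout reads stood against 22 (0.156, 0.0298 to 0.518). The same bin of H2-D1 held 2 and 8 reads, too few for a call.

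Over whole genes with 2 kb either side, B2m was the member with more signal in the knockout. It held 1028 and 945 reads, a ratio of 1.24 (1.14 to 1.36). Outside its promoter window there were 676 and 570, a ratio of 1.35 (1.21 to 1.52). Signal outside promoter windows was often higher in the knockout: the median ratio over 11487 genes with 50 or more such reads was 1.13, and 22.9% of them were at or above the B2m value. Among 2337 genes with 500 or more such reads, as B2m has, 13.2% were. When scaled instead by reads outside islands and promoters, the B2m gene had a ratio of 1.003 (0.917 to 1.096). Under TMM, Tap2 was the 1 gene with a whole-gene interval below 1, at 0.864 (0.756 to 0.987). Under TMM, ratios of the other members over the whole gene ran from 0.894 at H2-K1 to 1.02 at H2-D1, with intervals that included 1. This depended on the scaling. Scaled by reads outside islands and promoters, all members but B2m had intervals below 1, with ratios from 0.698 at Tap2 to 0.822 at H2-D1. Scaled to total reads, the intervals of H2-K1, Tap1, Tap2, Tapbp and Psmb8 lay below 1. Those of H2-D1, Psmb9 and Erap1 included 1, and that of B2m lay above it. Nlrc5 was not read under these scalings.

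Islands of enrichment, called on both libraries together, were read as well. B2m lay in an island of 6000 bp at chr2:121971401-121977400 with 1007 and 915 reads, a ratio of 1.26 (1.15 to 1.38). One island of 4600 bp covered the shared Tap1/Psmb9 start (928 and 1042 reads, 1.02, 0.929 to 1.11), and islands of 4000 bp and 2400 bp covered Psmb8 (0.928, 0.827 to 1.04) and Tap2 (0.873, 0.759 to 1.003). No island within 10 kb of a member was called, beside 3.36% higher and 5.37% lower of all 24957 islands.

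**Figure D3:**
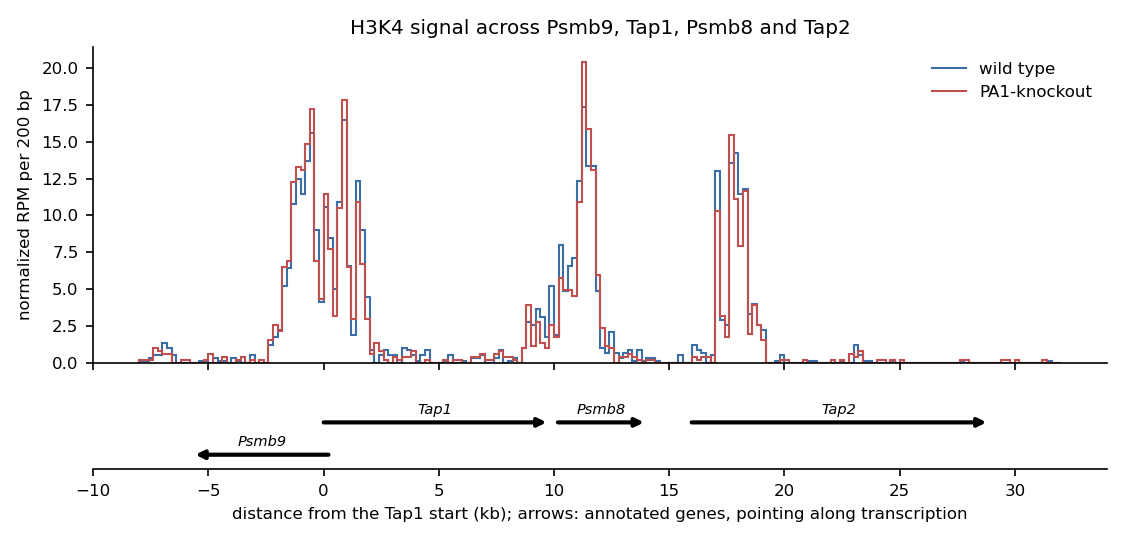
Normalized RPM in 200 bp bins across Psmb9, Tap1, Psmb8 and Tap2, by distance from the Tap1 start, for the PA1-knockout (red) and wild-type (blue) library, with the annotated genes as arrows below. Signal stood at 3 places, over the shared Tap1/Psmb9 start, over Psmb8 and inside the annotated Tap2 gene, and was low between them in both libraries.

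These 4 genes are neighbours within the MHC, and 6 of the 9 promoters are on chromosome 17. Between the strong islands of the cluster the bins held few reads in either library. Along it the ratio was 1.02 at Tap1/Psmb9, 0.980 at Psmb8 and 0.870 at Tap2, and the 3 intervals overlap.

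**Figure D4:**
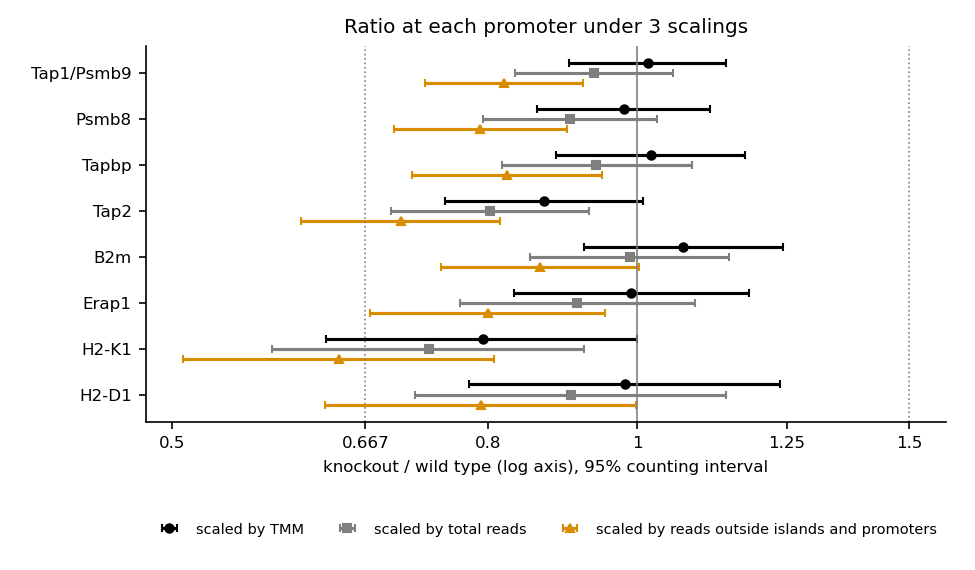
Ratio of knockout to wild type at the 8 compared promoters (log axis) with 95% counting intervals, under TMM scaling (black), total reads (grey) and reads outside islands and promoters (orange); dotted lines mark 1.5-fold. Under TMM all 8 intervals include 1, and under the last scaling all 8 ratios are below 1, from 0.641 at H2-K1 to 0.865 at B2m.

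Cells and labels were checked at the same promoters. PA1 itself, 2900092E17Rik in this annotation, held 114 knockout and 261 wild-type reads (0.499, 0.396 to 0.624), lower in the library labelled as knockout but not absent. All 8 B cell markers had strong signal, at 376 to 585 reads, and none was called. Of 9 T and NK cell markers 8 were under 50 reads, with medians of 1 and 2 reads. Cd3d, Zap70 and Ncr1 were at 0 in the knockout, whereas Lck held 145 and 176 reads. Of 7 myeloid markers 5 were under 50 reads, with Csf1r at 0 in both libraries and Emr1 at 9 and 25 reads. The others were Cd14 with 118 and 171 reads and Itgam with 35 and 27, and neither was called. Dendritic cells also present antigen, and of their 5 markers the 2 that could be compared were both lower in the knockout. Flt3 held 151 and 307 reads (0.561, 0.459 to 0.684) and Zbtb46 49 and 123 (0.455, 0.320 to 0.638). Itgax held 2 and 14 reads, Siglech 2 and 2, Xcr1 3 and 2, and the summed level of the 5 was 41.0 normalized RPM in the knockout and 77.7 in wild type. The part of such cells in the class I values was not tested, and fewer marked cells cannot be told apart from less mark per cell. All 5 erythroid and stromal markers held 50 or more reads, from 62 at Col1a1 to 389 at Pecam1 in the knockout, and none was called.

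The wider class I pathway was read from 4 lists with the members left out. Of 75 genes listed, 67 had a start in GENCODE vM1 and 57 held 50 reads. None was higher and 1 was lower, beside 0.667% and 4.89% of all promoters, and the median log2 ratio was 0.08.

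In the list of class I-like molecules, 13 of 23 annotated genes could be compared. Procr, the endothelial protein C receptor, was lower at 28 against 59 reads (0.542, 0.333 to 0.863). The next lowest was the Qa-2 gene H2-Q7, at 0.832 (0.603 to 1.14), with a unique place at only 27.1% of positions. The highest were Mr1, which presents vitamin metabolites to MAIT cells, at 1.39 (1.17 to 1.64), and H2-T24 at 1.30 (1.11 to 1.53). Both intervals lay above 1 without a call.

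The remaining lists had no call in either direction. All 8 promoters of the peptide-loading chaperones were compared, from Bcap31 at 0.996 and calreticulin (Calr) at 1.01 to Pdia3 (ERp57) at 1.15 and the glucosyltransferase Uggt1 at 1.18. The 17 genes of peptide supply ran from Psme2, a subunit of the proteasome activator PA28, at 0.975 and the third immunoproteasome subunit Psmb10 at 0.981 (0.838 to 1.15) to the constitutive subunits Psmb6 at 1.28 (1.01 to 1.62) and Psmb5 at 1.37 (1.04 to 1.80). The constitutive subunits Psmb5, Psmb6 and Psmb7 held 17.5, 23.9 and 43.0 normalized RPM in wild type. The immunoproteasome subunits had more signal in the same window length, with 89.5 at Psmb8, 105 at the promoter Psmb9 shares with Tap1 and 60.5 at Psmb10. Of window positions, 82.8% were unique at Psmb5 and 81.4% at Psmb6, beside 99.3% at Psmb7 and 93.2% at Psmb10. The Psmb8 value is from the retained-intron start, with 516 wild-type reads. At the protein-coding start of Psmb8-001 there were 324, beside 248 at Psmb7. Among 19 regulators, the NF-kB subunit Relb (0.877) and Creb1 (0.886) were lowest and Irf2 (1.16) and Rfxank (1.22, 1.06 to 1.39), a subunit of the RFX factor that binds X boxes, highest.

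MHC class II genes, which present peptides from outside the cell and share the SXY module, served for comparison. Of 11 compared, none was higher and 1 was lower, beside 0.667% and 4.89% of all promoters. The lower one was H2-DMb1, a chain of the class II peptide exchange factor, at 80 against 141 reads (0.648, 0.486 to 0.858). Only 64.9% of the positions in its window are unique. H2-Eb2 followed at 0.952, and the highest were H2-Ob and H2-Ab1, both at 1.19. Their median log2 ratio was 0.05, beside -0.02 for the class I members, and the difference was not tested.

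**Figure D5:**
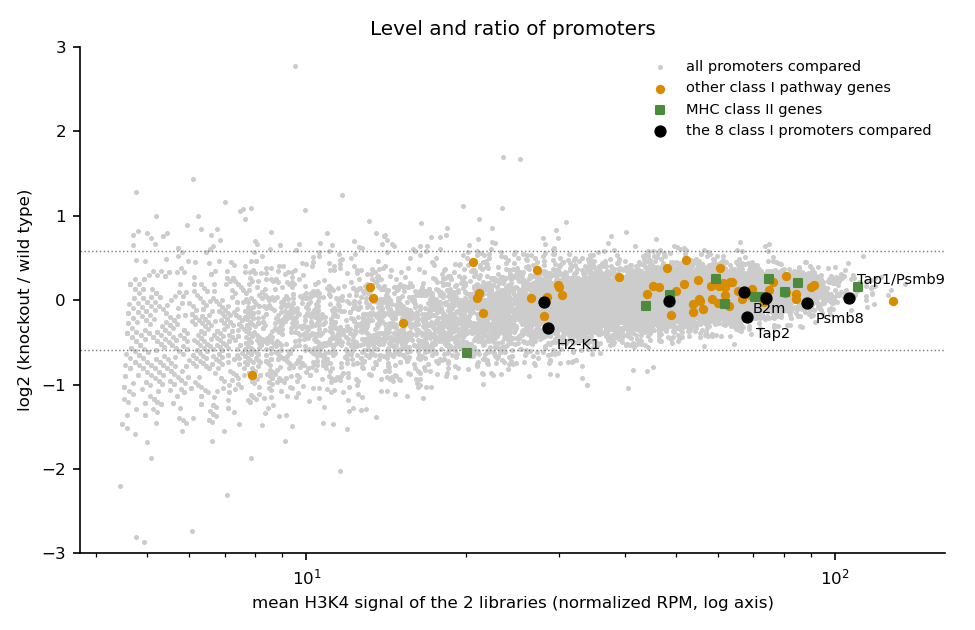
Mean level of the 2 libraries (log axis) against the log2 ratio for all compared promoters (grey), the 8 class I promoters (black), the wider class I lists (orange) and MHC class II genes (green); dotted lines mark 1.5-fold, and 3 promoters lie outside the axis. The black points sit between -0.33 and 0.10, inside the dotted lines.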

How the data were processed

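The members and gene lists were chosen with earlier results of these data known. The authors deposited 1 line per mapped read: its position, strand and a match descriptor, with a score column that is 0 throughout. The deposited files hold no normalized value. The submitters' processing notes name mm9 and SICER. Which aligner was run is not given in the sources. All reads are 25 bases long, and repeats of a position and strand are absent from both files. Other samples of the series were not analysed here.

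Read 5′ ends were shifted by 75 bp along the fragment and counted within 1 kb of the annotated start with most reads per gene (GENCODE vM1). Promoters with 50 or more reads were scaled by TMM (trims of 30% and 5%). Islands were windows of 200 bp whose Poisson probability was under 1e-05, taking 80% of the genome as reachable, joined across 200 bp gaps, with 20 or more reads. Named genes were all members and, of each list, those called plus the 2 highest and 2 lowest ratios; Psmb7 and the starts and parts within genes were added after values were seen. The code was tested on simulated data. Python 3.11.15, numpy 2.4.6, scipy 1.17.1, statsmodels 0.14.6 and biopython 1.88 were used.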

Additional observations from a re-analysis of the deposited data

How the results depend on the processing

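With 1 library per genotype, variation between animals and preparations was not measured. With scaling by reads outside islands and promoters, the median log2 ratio of the member promoters was -0.33, 1 member was lower (H2-K1, 0.641) and 2026 of all promoters were lower against 17 higher. Scaled to total reads, the 8 ratios ran from 0.733 to 0.989 with no call, and 946 promoters were lower against 41 higher. With windows of 500 bp, 3 of 56 promoters of the wider lists were higher (Mr1 1.51, Nfyc 1.54, Psmb6 1.53) and 2 lower (Ctcf 0.663, Procr 0.576). Of all 11590 promoters compared with that window, 1.22% were higher and 3.75% lower. With the trend of ratio on level removed, 1 was higher (Psmb5, 1.58) and 0 lower, and with GC and level trends removed 0 were lower. With the level trend removed, 250 of all 12143 promoters were higher and 157 lower, and with both trends removed 125 and 151. Within 2 kb of the start instead of 1 kb, the B2m ratio was 1.26 (1.14 to 1.40), still short of a call. With the GC trend removed, the B2m ratio was 0.998 and that of H2-K1 0.883. The Tap2 interval fell below 1 with total reads (0.803, 0.692 to 0.931) and within 2 kb (0.840, 0.732 to 0.964). It did so too with the level trend removed (0.832, 0.717 to 0.964), short of a call each time. It included 1 with the GC trend removed (0.918, 0.791 to 1.06) and with windows of 500 bp (0.972, 0.808 to 1.17). The B2m part 1 to 2 kb downstream was 1.23 under the scaling to reads outside islands, and no longer called. That scaling was added for genes and parts after seeing the data. No alternative changed the number of member promoters called higher, which was 0 in each. No paired analysis was possible because each genotype has 1 library.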
